A study of Mus musculus with 4 samples.

Results

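Abcg5 and Abcg8 encode the subunits of a sterol exporter of the apical membrane of gut cells. The pair was chosen by name, with earlier results of these libraries known, because both genes were higher with GW3965 than with DMSO. Its values in that contrast are therefore a description and support nothing by themselves. The 2 genes are 2 of 30284 genes with summed transcript values, and both were among the 13602 genes that entered the tests. They have 7 annotated transcripts in the files, 4 of Abcg5 and 3 of Abcg8, and 6 of the 7 passed the filter on low counts.

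The RNA is that of organoids of the small intestine, epithelial cultures grown in Matrigel from isolated crypts. The donors were 2 male C57BL/6J mice, labelled as 9 weeks old under a tag that names a DSS course, with no genetic change named. Crypts of each mouse were cultured for 6 h with GW3965 at 2 µM, which activates the liver X receptors (LXR), or with the vehicle DMSO, so that each treatment had 2 libraries, 1 per mouse. Such cultures hold epithelium without the bile, diet or blood that would deliver sterols in the animal, and the extraction text of the labels speaks of colon while the tissue label names small intestine.

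ABCG5 and ABCG8 are each 1 side of an ATP-binding cassette transporter, and neither works alone. They join in the endoplasmic reticulum, and the joined complex travels to the apical membrane of enterocytes and to the canalicular membrane of hepatocytes, where it exports plant sterols and cholesterol into the gut lumen and the bile. Loss of either gene in humans causes sitosterolaemia, in which plant sterols accumulate in blood and tissues. LXRs are nuclear receptors for oxidised sterols that bind DNA together with the retinoid X receptor (RXR), and in mice their agonists are known to raise both genes in liver and intestine.

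The genes lie head to head on chromosome 17 (build GRCm38, mm10, with the GENCODE M21 annotation). Abcg5 (ENSMUSG00000040505) spans chr17:84658234-84683011 on the minus strand and Abcg8 (ENSMUSG00000024254) spans chr17:84676302-84700333 on the plus strand. Abcg5-201 and Abcg8-201 start with 109 bases between them and run away from each other. The gene bodies nevertheless overlap over 6710 bases, because Abcg8-202 starts inside Abcg5, at base 84676302, and its first intron crosses the start of Abcg5. The first exon of Abcg8-202 shares 40 bases with an exon of Abcg5-201 and of Abcg5-202 and 82 bases with the retained-intron transcript Abcg5-204. Abcg8-202 also lacks exon 3 of Abcg8-201 (chr17:84688532-84688688).

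**Figure D1:**
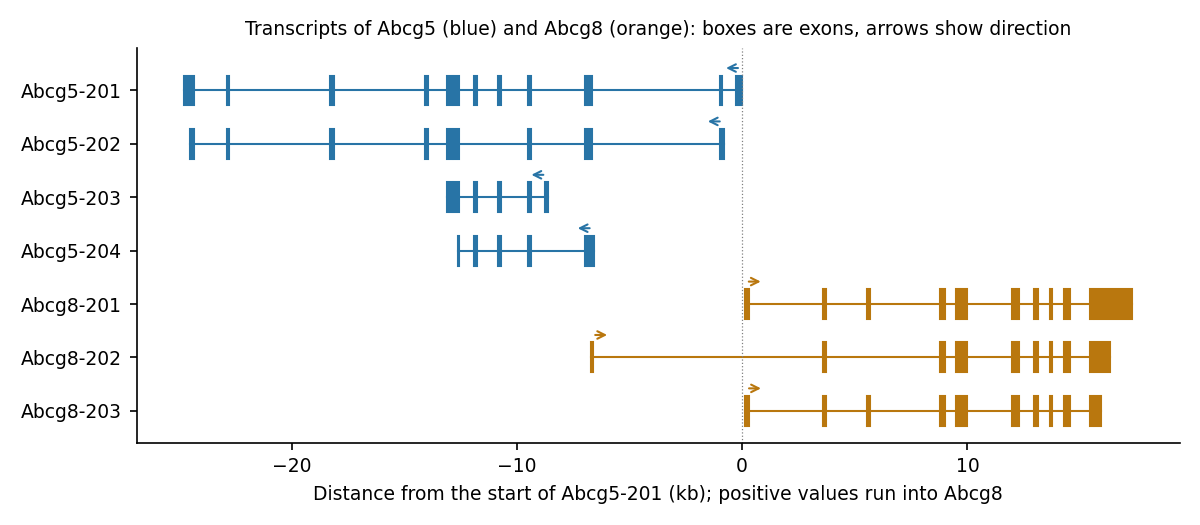
Map of the 7 transcripts, drawn to scale as distance in kb from the start of Abcg5-201, with exons as boxes and arrows for the direction of transcription. Abcg5-201 and Abcg8-201 diverge from the dotted line, and Abcg8-202 starts inside Abcg5 and crosses that line.

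The bases between the divergent starts, and those before the start of Abcg8-202, are shown because Abcg5-201, Abcg8-201 and Abcg8-202 begin beside them (RefSeq promoter table, GRCm38.p6, plus strand). Capitals in the first mark GATAA, the core of GATA factor sites, on either strand. Capitals in the second mark the 97 bases that are also exon 3 of Abcg5-201 on the other strand.
Between the starts of Abcg5-201 and Abcg8-201, chr17:84683012-84683120: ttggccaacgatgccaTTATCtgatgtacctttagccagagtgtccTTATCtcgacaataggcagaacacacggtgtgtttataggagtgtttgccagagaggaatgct
Before the start of Abcg8-202, chr17:84676052-84676301: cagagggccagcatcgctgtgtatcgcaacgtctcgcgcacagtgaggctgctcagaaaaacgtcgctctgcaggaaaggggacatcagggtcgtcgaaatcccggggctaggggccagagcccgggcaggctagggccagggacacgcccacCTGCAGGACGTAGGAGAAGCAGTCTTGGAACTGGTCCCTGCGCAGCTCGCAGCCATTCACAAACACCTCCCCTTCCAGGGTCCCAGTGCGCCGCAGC

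The stretch between the divergent starts held 2 copies of GATAA, both read on the minus strand, at positions 17 and 47 from its left end. Of 32851 RefSeq promoter windows, 9.36% held at least 1 copy on either strand in the 109 bases before the start. At least 2 copies on either strand were held by 0.788%. The stretch also held 1 copy of TATAAA, on the minus strand, and 5.90% of windows held at least 1 on either strand. It held no copy of AGGTCA (6.39% of windows) or CCAAT (20.1%). AGGTCA is the core recognised by many nuclear receptors. An LXR-RXR element of the DR4 type holds that core a second time after a gap of 4 bases, and the closest match in each of the 3 promoter windows of the pair, which reach 50 bases past a start, had 4 mismatches in 12 letters. As few mismatches occurred in 76.9% of all windows. The 250 bases before Abcg8-202 held none of the 4 short motifs and had a G+C content of 64.0%, against 45.9% between the divergent starts. GATAA was chosen after the sequence was seen, all motifs were sought on both strands, and these windows say nothing of sites elsewhere in the locus.

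Total estimated counts were 16572359 and 19486547 in the GW3965 libraries of mouse 1 and mouse 2, and 19014131 and 19360706 in the DMSO libraries. The GW3965 library of mouse 1 stood apart. Mitochondrial transcripts took 14.0% of its gene counts, against 8.74% in the GW3965 library of mouse 2 and 7.60% and 9.43% in the DMSO libraries (95% Wilson intervals, which cover counting error alone, did not overlap). Its summed TPM over 6 epithelial marker genes was 9316, against 15934 in the GW3965 library of mouse 2 and 14825 and 14214 in the DMSO libraries. TPM is the level per transcript length as a part of its library, and normalised CPM are counts scaled to a common library size by TMM.

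Both subunit genes were about 4 times higher with GW3965. Abcg5 had 137 and 116 TPM in the GW3965 libraries of mouse 1 and mouse 2, against 36.3 and 26.4 TPM in the DMSO libraries. The lower GW3965 value was 3.20 times the higher DMSO value, and the groups did not overlap. Abcg5 thus averaged 127 ± 14.9 TPM with GW3965 and 31.3 ± 6.98 TPM with DMSO (SD, n = 2 each), and its TPM was 3.78-fold higher in mouse 1 and 4.40-fold higher in mouse 2. Abcg8 had 42.2 and 60.4 TPM in the GW3965 libraries, against 14.5 and 12.0 TPM in the DMSO libraries, again without overlap. It averaged 51.3 ± 12.9 TPM with GW3965 and 13.3 ± 1.81 TPM with DMSO (SD, n = 2 each), 2.90-fold higher in mouse 1 and 5.04-fold higher in mouse 2. Both GW3965 libraries lay above both DMSO libraries in normalised CPM in 9.28% of all genes tested, and below both in 9.18%.

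**Figure D2:**
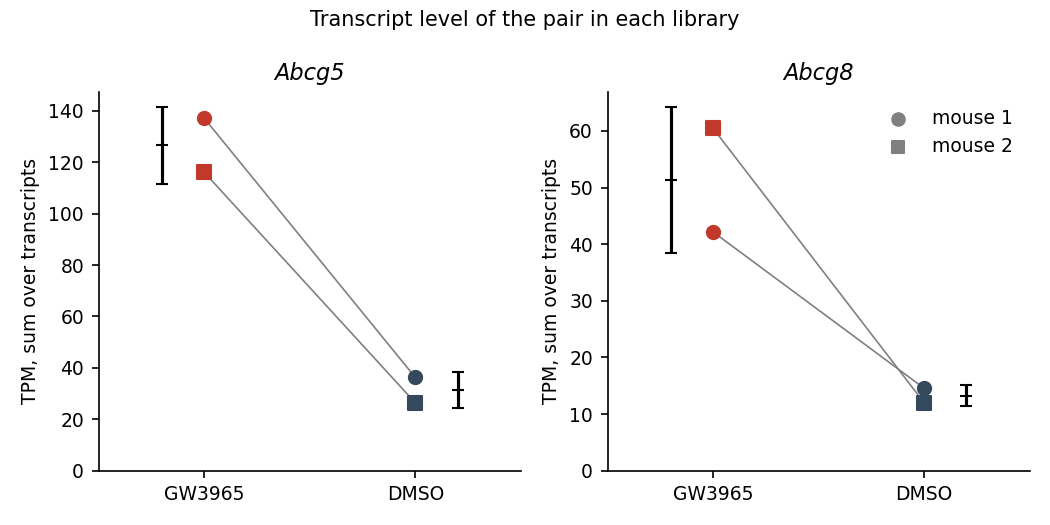
TPM of Abcg5 and Abcg8, summed over transcripts, in each GW3965 and DMSO library, with grey lines joining the libraries of 1 mouse and black bars for the mean ± SD (n = 2). Abcg5 lies at 116 to 137 TPM with GW3965 and at 26.4 to 36.3 TPM with DMSO, and Abcg8 at 42.2 to 60.4 TPM and at 12.0 to 14.5 TPM.

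Counts behind these levels were 4452 and 3893 for Abcg5 and 1891 and 2492 for Abcg8 in the GW3965 libraries, against 1208 and 974 for Abcg5 and 629 and 550 for Abcg8 in the DMSO libraries. Among genes with a TPM above 0, Abcg5 stood at percentile 95.6 and 94.1 with GW3965 and at percentile 82.6 and 79.3 with DMSO. Abcg8 stood at percentile 87.1 and 89.1 with GW3965 and at percentile 68.7 and 66.9 with DMSO. In all 4 libraries the level per length of Abcg5 was above that of Abcg8. In bulk RNA, more cells that express a gene and more RNA per cell cannot be told apart.

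In the fit across all genes the log2 fold change of GW3965 over DMSO was 2.06 ± 0.24 (SE) for Abcg5 and 2.00 ± 0.20 for Abcg8. Within mice the log2 difference of normalised CPM was 2.13 and 1.98 for Abcg5 and 1.83 and 2.16 for Abcg8, in mouse 1 and mouse 2. By normalised CPM the larger change was in mouse 1 for Abcg5 and in mouse 2 for Abcg8, whereas by TPM it was in mouse 2 for both genes. Both genes were among the 8 genes past the Benjamini-Hochberg adjusted p of 0.05 in edgeR's quasi-likelihood test (0.0588% of 13602 genes, all higher; 48 genes with the mouse as a block). Since this contrast chose the pair, nothing is read from that count. Without the GW3965 library of mouse 1, the log2 fold changes were 1.84 for Abcg5 and 2.09 for Abcg8. Without the DMSO library of mouse 2, Abcg5 had 1.93 and was no longer called (edgeR adjusted p = 0.0710).

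Differences in the authors' deposited table of log2 CPM were smaller than by normalised CPM in mouse 1 and close to those in mouse 2. By that table the larger change was in mouse 2 for both genes, whereas by normalised CPM it was in mouse 1 for Abcg5. In the authors' deposited table Abcg5 had 7.67 and 7.89 with GW3965 and 6.37 and 5.92 with DMSO, a log2 difference of 1.31 in mouse 1 and 1.97 in mouse 2. Abcg8 had 6.72 and 7.11 with GW3965 and 5.57 and 5.02 with DMSO in the authors' deposited table, a log2 difference of 1.14 and 2.09. For the pair the direction was the same in both mice, and how that table was scaled is not stated there. Over 8463 genes with values in both measures, the log2 differences of the mice had a Pearson correlation of -0.29 by normalised CPM. In the authors' deposited table that correlation was -0.28.

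Of the 7 annotated transcripts, the 6 that passed the filter had higher TPM in both GW3965 libraries than in both DMSO libraries. The share of all transcripts set apart in this way was not computed, and a transcript could pass the filter through 1 treatment alone. Since this contrast also chose the pair, nothing is read from that count. Abcg5-201, the 13-exon protein-coding form that starts beside Abcg8, had 91.5 and 87.5 TPM with GW3965, against 26.3 and 21.0 TPM with DMSO. It held 80.1% and 85.8% of the Abcg5 counts with GW3965 (95% Wilson intervals 78.9 to 81.3 and 84.7 to 86.9) and 84.8% and 86.0% with DMSO (82.7 to 86.7 and 83.7 to 88.0). Abcg5-202, a shorter coding form with weaker annotation support, had 24.5 and 15.9 TPM with GW3965, against 4.58 and 4.93 TPM with DMSO. Abcg5-204, a retained-intron form, had 21.1 and 11.8 TPM with GW3965, against 5.43 and 0.524 TPM with DMSO. For this form the DMSO libraries lay further apart, as a ratio, than the group means did. Abcg5-203, a processed transcript, was listed at 0 in both libraries of mouse 1. With 3 counts as the limit that a count of 0 allows, its share of Abcg5 counts there could be up to 0.0674% with GW3965 and 0.248% with DMSO (Wilson upper bounds 0.0862% and 0.317%). The form reached 0.960 TPM in the GW3965 library of mouse 2.

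All 3 coding transcripts of Abcg8 were higher with GW3965. Abcg8-203, which starts 10 bases inside Abcg8-201 and ends earlier, had 18.1 and 31.4 TPM with GW3965, against 8.82 and 4.96 TPM with DMSO. Abcg8-201 had 10.8 and 8.54 TPM with GW3965, against 2.93 and 2.996 TPM with DMSO. Abcg8-202, which starts within Abcg5, had 13.2 and 20.5 TPM with GW3965, against 2.80 and 4.03 TPM with DMSO. The estimates for transcripts of both starts were thus higher in the treated cultures. Only 2.22% of the 31-base stretches of Abcg8-202 are its own within the pair, and as many are shared with Abcg5. A change at the inner start itself was therefore not tested. In the fit across 32357 transcripts the log2 fold change was 1.79 ± 0.26 (SE) for Abcg8-201, 2.36 ± 0.33 for Abcg8-202, 1.91 ± 0.38 for Abcg8-203, 2.00 ± 0.21 for Abcg5-201, 2.18 ± 0.35 for Abcg5-202 and 2.60 ± 1.12 for Abcg5-204. No transcript of any gene was past the adjusted p of 0.05 in that edgeR fit, and 846 had an unadjusted p under 0.05.

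**Figure D3:**
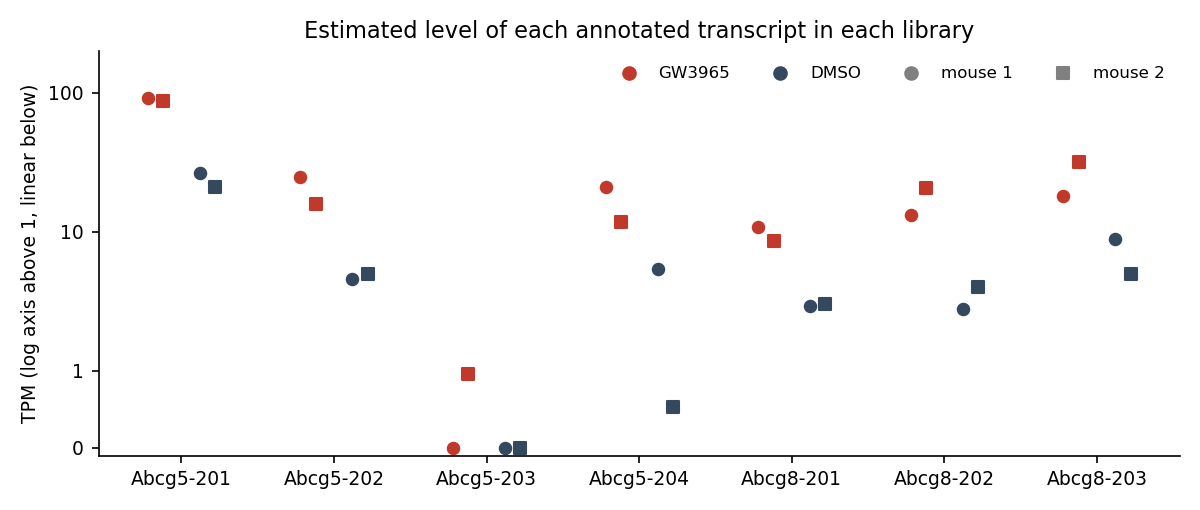
TPM of each annotated transcript in each library, on an axis that is logarithmic above 1 and linear below it, with GW3965 in red to the left of DMSO in blue, circles for mouse 1 and squares for mouse 2. Abcg5-201 is the highest transcript in all 4 libraries (21.0 to 91.5 TPM), and Abcg5-203 is at or near 0 in 3 of them.

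The estimated division of Abcg8 between its transcripts differed between cultures. The Wilson intervals below leave out the error of assigning reads to transcripts. Abcg8-203 took 36.2% and 46.7% of the Abcg8 counts in the GW3965 libraries of mouse 1 and mouse 2 (95% Wilson intervals 34.1 to 38.4 and 44.7 to 48.7), against 53.0% and 34.9% in the DMSO libraries (49.1 to 56.9 and 31.1 to 39.0). The order of the treatments was opposite in the mice. Abcg8-203 has 28 stretches of 31 bases (1.24% of its own) that no other transcript of the pair holds, and Abcg8-202 has 53 (2.22%), so few reads can fall to either form alone. A further 53 of such stretches of Abcg8-202 are shared with Abcg5, and the use of strand in counting is not stated in the sources used here. Of Abcg5-201, 12 stretches (0.517%) are shared with Abcg8, and of Abcg5-204 53 stretches (6.46%) are.

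The ratio of Abcg5 to Abcg8 TPM was 3.25 and 1.92 in the GW3965 libraries of mouse 1 and mouse 2, against 2.49 and 2.20 in the DMSO libraries. The GW3965 libraries lay on either side of the DMSO libraries. The mean log2 ratio was 1.32 ± 0.54 with GW3965 and 1.23 ± 0.13 with DMSO (SD, n = 2 each), a difference of 0.09 that is smaller than the spread between libraries. The log2 ratio was 0.38 higher with GW3965 in mouse 1 and fell by 0.20 in mouse 2. With protein-coding transcripts alone the ratio was 2.75 and 1.71 with GW3965 and 2.12 and 2.16 with DMSO. The opposite directions in the mice were also present in estimated counts, where the ratio was 2.35 and 1.56 with GW3965 and 1.92 and 1.77 with DMSO. A difference in response between the mice cannot be tested with 1 library per mouse and treatment.

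**Figure D4:**
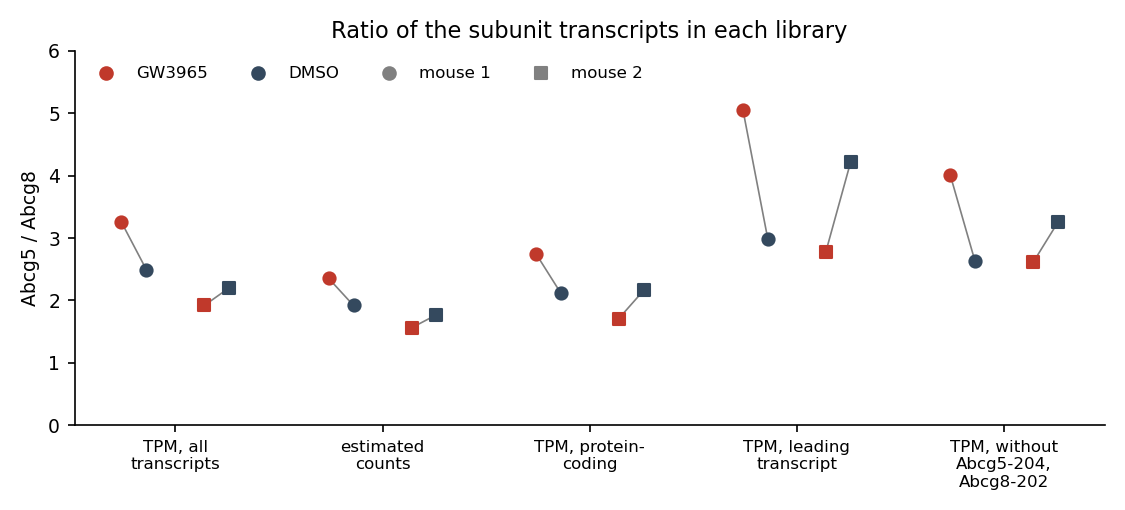
Ratio of Abcg5 to Abcg8 in each library under 5 ways of summing transcripts, with GW3965 in red to the left of DMSO in blue, circles for mouse 1, squares for mouse 2 and lines joining the libraries of 1 mouse. In TPM over all transcripts the ratio is 3.25 and 1.92 with GW3965 and 2.49 and 2.20 with DMSO, and in each of the 5 ways mouse 1 has the higher ratio with GW3965 and mouse 2 the lower.

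The contrast between the mice did not enter the choice of the pair. With treatment in the model, the log2 fold change of mouse 2 over mouse 1 was -0.34 ± 0.27 (SE) for Abcg5 (edgeR adjusted p = 0.996) and 0.02 ± 0.25 for Abcg8 (edgeR adjusted p = 0.998). Neither was past the threshold, which 93 of 13602 genes were (0.684%).

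Genes whose profile over the 4 libraries lay nearest to the pair were sought by the Euclidean distance between log2 CPM centred on each gene's mean, among 11558 other genes whose mean log2 CPM was 1 or more. The nearest to Abcg5 was Abcg8 (distance 0.43). Ppara, which encodes a nuclear receptor for fatty acids, followed at 0.55, Cyp2w1, a cytochrome P450, at 0.61, Mylip, a ubiquitin ligase that acts on the LDL receptor, at 0.61, and Srebf1, which encodes an activator of lipid synthesis genes, at 0.72. The nearest to Abcg8 was Ppara, at a distance of 0.15. Abcg5 was second at 0.43, followed by Srebf1 at 0.56, Csf2rb, a cytokine receptor subunit, at 0.58 and Mylip at 0.74. Ppara was 12.4 and 17.9 TPM with GW3965, against 2.83 and 2.78 TPM with DMSO, and like Abcg8 it was further apart in mouse 2. These distances describe the same 4 libraries from which the pair was chosen.

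Other genes of sterol traffic in enterocytes were taken from a list of 27, all tested. In that list 2 genes rose, 0 fell and 25 did not pass (edgeR, adjusted p under 0.05, against 0.0588% of all genes), with 2 at an unadjusted p under 0.05 and 2 called by DESeq2. The median log2 fold change was -0.01, against 0.00032 over all genes, and ranged from -0.09 to 0.10 with 1 library left out. The genes that rose were the exporters Abca1 and Abcg1, which serve efflux to lipoproteins. Abca1 had 5.05 and 7.54 TPM with GW3965, against 0.0497 and 0.274 TPM with DMSO, and Abcg1 had 7.09 and 9.16 TPM, against 0.439 and 0.387 TPM. In each library both were lower per length than either subunit of the luminal transporter.

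The genes that bring sterols into the enterocyte or store them did not pass the test. Npc1l1, which takes up cholesterol from the lumen and so opposes the pair, had 25.5 and 39.7 TPM with GW3965, against 32.3 and 38.2 TPM with DMSO (log2 fold change -0.05 ± 0.23, SE). Abcg5 was 2.92 to 5.38 times as high per length as Npc1l1 with GW3965, against 0.692 to 1.12 times with DMSO. Soat2, which esterifies absorbed cholesterol, had 71.4 and 68.0 TPM with GW3965, against 63.3 and 65.7 TPM with DMSO (0.23 ± 0.21). Other members, named for their rank by p in the list, were Soat1, the other cholesterol acyltransferase (0.39 ± 0.18), Apoa1, an apolipoprotein (0.52 ± 0.37), and Lipa, the lysosomal lipase (-0.25 ± 0.18).

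ABC transporters that, like the pair, are built from 2 separate chains were compared next. Of 8 listed genes of the ABCG and ABCD classes, 5 were tested, 1 rose (Abcg1) and 0 fell, against 0.0588% called over all genes. Abcg2, a drug and urate exporter of the apical membrane, had 37.4 and 37.5 TPM with GW3965, against 42.2 and 34.8 TPM with DMSO, and its log2 fold change was 0.19 ± 0.18. Abcd3 and Abcd4, of the ABCD class, had -0.19 ± 0.24 and 0.11 ± 0.20. Abcg3, Abcg4 and Abcd2 had at most 6 counts in a library and were not tested. Over the 5 the median log2 fold change came to 0.11, and to 0.17 and 0.26 with the DMSO or the GW3965 library of mouse 2 left out.

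Factors reported to act on the promoter region of the pair did not pass the test. Of 22 listed genes 20 were tested, 0 rose and 0 fell in edgeR or DESeq2, and 0 had an unadjusted p under 0.05. With 0.0588% of all genes called in edgeR, that count does not set the list apart. Their median log2 fold change was -0.03, with 7 positive and 13 negative. It had no stable direction, at 0.10 with 14 positive when the GW3965 library of mouse 1 was left out, -0.24 with 6 positive when that of mouse 2 was. Leaving out a DMSO library gave 0.02 (mouse 1 omitted) and -0.09 (mouse 2 omitted). The LXR genes Nr1h2 and Nr1h3 had 44.2 and 47.5 TPM and 12.3 and 12.1 TPM with GW3965, against 47.8 and 46.0 TPM and 13.2 and 11.3 TPM with DMSO. Hnf4a, a hepatocyte and enterocyte factor, had 199 and 371 TPM with GW3965, against 348 and 335 TPM with DMSO. Gata4 had 71.0 and 133 TPM with GW3965, against 135 and 105 TPM with DMSO, and Gata6 had 24.6 and 44.1 TPM, against 42.1 and 38.1 TPM. For these 3 factors the low value was that of the GW3965 library of mouse 1. The summed TPM of the 6 epithelial markers was also lowest there, at 9316. How the factors relate to the level of the pair was not tested. Nr5a2, an orphan receptor, had 3.24 and 5.02 TPM with GW3965, against 4.26 and 3.86 TPM with DMSO. Rora, another orphan receptor, had a log2 fold change of 0.46 ± 0.42.

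Of 10 genes for folding of membrane glycoproteins in the endoplasmic reticulum, where the subunits join, 0 rose and 0 fell in edgeR or DESeq2, and 0 had an unadjusted p under 0.05, again beside 0.0588% of all genes called. Their median log2 fold change was -0.11. Leaving out a GW3965 library gave 0.10 (mouse 1 omitted) and -0.36 (mouse 2 omitted), and leaving out a DMSO library gave -0.18 (mouse 1 omitted) and -0.06 (mouse 2 omitted). Canx, the lectin chaperone calnexin, had 53.2 and 100.5 TPM with GW3965, against 94.9 and 88.4 TPM with DMSO. Lman1, Sec61a1 and Calr had log2 fold changes of -0.23 ± 0.19, -0.17 ± 0.25 and -0.12 ± 0.25. Of the 10 genes 1 was positive, and 9 were positive without the GW3965 library of mouse 1.

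Among 20 other LXR targets, a list written with their values known, 18 were tested, 4 rose (Abca1, Abcg1, Srebf1 and Scd2) and 0 fell, against 0.0588% called over all genes. With the mouse as a block 6 rose, Mylip and Scd1 being added, against 0.353% of all genes. With the GW3965 library of mouse 1 left out 7 rose, while 54 of 13884 genes were called. Srebf1 had 252 and 293 TPM with GW3965, against 48.3 and 52.0 TPM with DMSO, and Scd2, a desaturase, had 59.5 and 125 TPM, against 10.9 and 14.3 TPM. The median log2 fold change of the list was 0.38, with all 18 positive. The median was 0.58 with the DMSO library of mouse 2 left out and 0.60 with the GW3965 library of mouse 2 left out, and 12 members were positive with the GW3965 library of mouse 1 left out. Members that did not pass included Mylip (2.37 ± 0.36, edgeR adjusted p = 0.0766), Scd1, another desaturase (2.55 ± 0.52), Lpcat3, a phospholipid-remodelling enzyme (0.75 ± 0.25), and Arl4c, a small GTPase (0.57 ± 0.37).

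**Figure D5:**
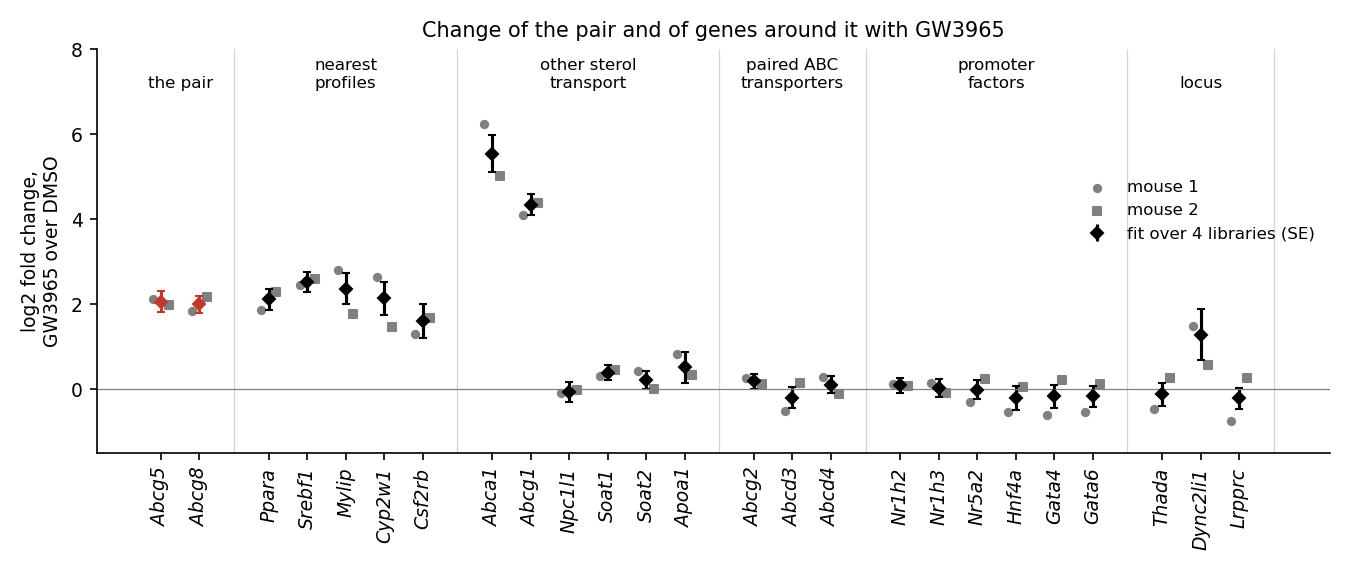
Log2 fold change of GW3965 over DMSO (diamonds, with the SE of the fit) and the log2 difference within mouse 1 (circles) and mouse 2 (squares) for the pair and a selection of the genes named in the text. Abcg5 and Abcg8 sit at 2.06 and 2.00 beside Ppara, below Abca1 and Abcg1, and apart from Npc1l1 at -0.05.

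Neighbouring genes within 200 kb that had values were at low levels or did not pass the test. Other annotated neighbours had no values in these libraries. Dync2li1, a dynein light intermediate chain gene on the far side of Abcg5, had 29 and 13 counts with GW3965, against 11 and 8 counts with DMSO (log2 fold change 1.28 ± 0.60). Lrpprc, a regulator of mitochondrial mRNA on the far side of Abcg8, had 6.47 and 11.2 TPM with GW3965, against 12.3 and 8.54 TPM with DMSO (-0.22 ± 0.24). Thada had -0.12 ± 0.26, and Plekhh2 had at most 5 counts in a library.

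The summed TPM of markers of the cells that carry the transporter was above 0 in all libraries. All 6 epithelial and all 10 absorptive enterocyte markers were above 0 in at least 1 library, and no marker of any class passed the test. The summed TPM of the 10 enterocyte markers was 6361 and 6995 with GW3965, against 5773 and 6373 with DMSO. It was thus higher with GW3965 in each mouse, by less than the subunit genes were, and its part in their difference was not tested. Of the 10 markers 6 were positive in the fit, beside 50.0% of all genes. Among the 10 were Apoa1 and Apoa4, also in the sterol traffic list. Apoa1 had 687 and 1229 TPM with GW3965, against 454 and 919 TPM with DMSO. Apoa4 had 881 and 1006 TPM with GW3965, against 738 and 919 TPM with DMSO. The 4 goblet cell markers summed to 4447 and 4449 TPM with GW3965, against 3285 and 4256 TPM with DMSO, and the 4 stem cell markers to 88.3 and 98.9 TPM, against 124 and 96.5 TPM. The 5 hepatocyte markers summed to 2.43 and 3.06 TPM with GW3965, against 2.33 and 2.62 TPM with DMSO. The 6 colon markers summed to 33.6 and 37.0 TPM with GW3965, against 37.0 and 35.3 TPM with DMSO. The 8 leukocyte markers, of which 7 were positive, summed to 37.3 and 22.0 TPM with GW3965, against 19.2 and 23.4 TPM with DMSO, the high value being that of the GW3965 library of mouse 1.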

How the data were processed

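RNA of 4 organoid libraries (2 mice, each with GW3965 and DMSO) was made into stranded poly-A libraries and read as single ends of 50 bases, per the labels' protocols. The deposited files hold expected counts, estimated per transcript by the authors, and TPM, which the authors' quantifier scales to a fixed sum per library. A series-wide table holds the authors' whole-number counts per transcript, and another the authors' deposited log2 CPM per gene symbol, whose scaling no label or header states. The submitters' processing notes name kallisto, CASAVA, FastQC and build mm10. Neither the annotation release nor the use of strand is stated in the sources used here.

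Transcripts were matched by identifier to GENCODE M21 (86119 of 88198) and summed to 30284 genes; unmatched transcripts held 0.685% to 0.854% of counts. Estimated counts were rounded and went into the quasi-likelihood test of edgeR 4.0.16 (R 4.3.3; TMM scaling, filterByExpr, Benjamini-Hochberg adjustment over 13602 genes, threshold 0.05), with treatment as the only term. For mouse 2 over mouse 1 treatment was a term. DESeq2 1.42.0 and limma 3.58.1 were alternatives. Per the labels, each number marks 1 mouse; the correlation of their deviations from the group means was 0.072. The code was tested on simulated data. The members and lists were chosen with earlier results of these data known. From each list the text names members past the threshold and those with the smallest p, besides genes fixed by name; some genes that this rule names are not reported here. With 2 mice, p-values measure only the spread between these libraries, which edgeR shares across genes. In the main fit a gene's own spread had 2 degrees of freedom, beside 7.78 borrowed from other genes. With mouse and treatment both as terms, 1 degree of freedom remained. The spread used there was that pooled over genes.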

Additional observations from a re-analysis of the deposited data

Results flagged for a closer look

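The log2 ratio of Abcg5 to Abcg8 TPM moved in opposite directions in the mice, 0.38 higher with GW3965 than with DMSO in mouse 1 and -0.20 in mouse 2. The share of Abcg5 TPM held by Abcg5-202 differed by 5.26 percentage points, GW3965 minus DMSO, in mouse 1 and by -4.98 in mouse 2. The share of Abcg8 TPM held by Abcg8-201 differed by 5.45 percentage points in mouse 1 and by -10.9 in mouse 2, and that of Abcg8-203 by -17.6 in mouse 1 and 10.6 in mouse 2. Each direction rests on 1 pair of libraries per mouse, and the difference between the mice was not tested.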

How the results depend on the processing

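The log2 fold changes of Abcg5 and Abcg8 were 2.06 and 2.00 with the mouse as a replicate block, and 1.64 and 1.62 in the authors' deposited log2 CPM, a table added after seeing the data. Leaving out 1 library gave 1.84 to 2.25 for Abcg5 and 1.90 to 2.09 for Abcg8. Abcg5 lost its call without the DMSO library of mouse 2, and neither gene was called in the authors' deposited table (limma adjusted p = 0.660 for Abcg5 and 0.754 for Abcg8); the other settings run kept both calls, the replicate block included. Genes past the threshold numbered 14 without a filter on low counts, 48 with the replicate block, 20 with DESeq2, 20 with limma-voom, 0 in the authors' deposited table (360 at an unadjusted p under 0.05 in limma) and 38 to 84 with 1 library left out. For mouse 2 over mouse 1 they numbered 10 without the treatment term and 28 with DESeq2. The cause was not tested. The difference in the log2 ratio of the subunits ranged from -0.29 to 0.47 with 1 library left out and was 0.09 with the replicate block. A ratio without transcripts that overlap the other gene could not be given, since it leaves Abcg5 no transcript above the floor in every library. The mouse contrast with a library left out has no residual degrees of freedom. Estimated counts of single transcripts carry an error that the deposited values do not give.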
